A study of Homo sapiens with 6 samples.

Results

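The 9 genes described here encode HMGCS1, MVK, PMVK, MVD, IDI1, FDPS, FDFT1, SQLE and LSS, the enzymes that lead from HMG-CoA through mevalonate to lanosterol. They were chosen by gene symbol, and all 9 were found among the 21503 genes of the count table and the 60233 genes of the TPM table. The study compared 3 libraries of UMUC3 cells with GANAB knockdown against 3 libraries of control UMUC3 cells, each grown for 14 days after orthotopic transplantation into the bladders of C57 nude mice. UMUC3 is an established human bladder carcinoma line, nude mice lack T cells but keep other immune cells, and GANAB encodes the catalytic subunit of glucosidase II, which trims glucose from N-glycans in the endoplasmic reticulum. Both groups shared the line, the host, the site and the time, and differed in the labels by genotype alone. The labels name no knockdown reagent, clone or count of mice behind a library. The p-values therefore measured the spread among these 6 libraries, part of which may be technical.

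HMGCS1, the cytosolic HMG-CoA synthase, joins acetyl units into HMG-CoA, from which mevalonate is made. MVK, PMVK and MVD phosphorylate and decarboxylate mevalonate to isopentenyl diphosphate, the building block of isoprenoids, and IDI1 interconverts it with its isomer. FDPS condenses these units to farnesyl diphosphate, the branch point to dolichol, ubiquinone, protein prenylation and sterols, and FDFT1, SQLE and LSS turn it into squalene, squalene epoxide and lanosterol. In mammalian cells most genes of this route are known targets of SREBP2, a transcription factor held in the endoplasmic reticulum when sterols are plentiful, which acts at sterol regulatory elements together with NF-Y and Sp1. Dolichol from the same route carries the glycan precursor whose glucose residues glucosidase II later removes.

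The promoters are shown because these genes are known to share control elements and because their RNA levels differed between the groups to unequal extents. RefSeq promoters (GRCh38.p14) were used for 7 of the 9 genes, in 10 windows of 250 bases before an annotated start. FDFT1 and SQLE were left out of this step, so their promoters were not examined. Below are MVK, FDPS, MVD and HMGCS1, with several NF-Y boxes each, and PMVK, with none. Capitals mark the NF-Y box CCAAT and the sterol element core TCACNCCA, on either strand.
MVK, chr12:109573544-109573793, plus strand: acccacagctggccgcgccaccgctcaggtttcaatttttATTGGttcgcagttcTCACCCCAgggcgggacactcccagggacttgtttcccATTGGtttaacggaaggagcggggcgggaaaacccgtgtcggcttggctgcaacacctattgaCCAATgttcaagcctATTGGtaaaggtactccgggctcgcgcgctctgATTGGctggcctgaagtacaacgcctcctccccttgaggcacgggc
FDPS, chr1:155308616-155308865, plus strand: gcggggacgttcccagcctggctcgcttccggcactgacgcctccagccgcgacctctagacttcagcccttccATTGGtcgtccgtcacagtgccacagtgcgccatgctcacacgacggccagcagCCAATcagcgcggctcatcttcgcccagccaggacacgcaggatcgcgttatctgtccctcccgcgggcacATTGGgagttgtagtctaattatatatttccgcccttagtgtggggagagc
MVD, chr16:88663092-88663341, minus strand: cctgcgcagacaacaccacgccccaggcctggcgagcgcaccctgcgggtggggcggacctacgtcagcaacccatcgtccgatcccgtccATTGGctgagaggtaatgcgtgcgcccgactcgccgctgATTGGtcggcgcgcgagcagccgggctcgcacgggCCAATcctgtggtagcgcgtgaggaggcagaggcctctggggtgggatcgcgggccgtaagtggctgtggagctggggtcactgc
HMGCS1, chr5:43313413-43313662, minus strand: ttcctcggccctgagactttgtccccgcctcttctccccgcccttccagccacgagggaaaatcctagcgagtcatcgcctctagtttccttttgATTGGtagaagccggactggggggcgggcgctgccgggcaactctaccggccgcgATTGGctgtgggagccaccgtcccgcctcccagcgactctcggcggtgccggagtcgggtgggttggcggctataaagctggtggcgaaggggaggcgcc
PMVK, chr1:154936720-154936969, minus strand: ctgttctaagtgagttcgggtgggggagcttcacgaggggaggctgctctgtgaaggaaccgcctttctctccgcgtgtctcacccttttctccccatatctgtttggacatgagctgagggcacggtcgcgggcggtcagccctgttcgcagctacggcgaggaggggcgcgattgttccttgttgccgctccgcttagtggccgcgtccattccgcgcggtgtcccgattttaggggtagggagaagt
CCAAT was found in 7 of the 10 windows, against 32% of all 35114 promoter windows of this length. By gene it was found in 6 of the 7, and the share of all genes with a box was not computed. MVK held 5 boxes, MVD and FDPS 3 each, and LSS 1, while HMGCS1 had them in 1 of 2 windows and IDI1 in 2 of 3. The sterol core was found once, in MVK, with its first base 195 bases before the start, against 3.2% of all windows. The Sp1 box GGGCGG was found in all 10 windows, against 42.6% of all windows. No match of 1 motif overlapped a match of another in these windows, and 2 CCAAT matches of IDI1 on opposite strands overlapped each other. RefSeq and GENCODE 29 place some starts differently, so the printed windows of MVK and PMVK lie wholly and those of FDPS, MVD and HMGCS1 partly inside the GENCODE gene. A match to these letters is a description of the sequence, and no binding was measured.

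The knockdown libraries held 37659163, 36619291 and 40039584 estimated counts and the control libraries 36381218, 17942832 and 11737837. GANAB was at 231 to 238 CPM in knockdown libraries and at 661 to 825 CPM in control libraries, 3.1-fold lower in the knockdown in the fit (edgeR adjusted p = 0.00239). CPM here are counts scaled by the TMM-adjusted size of each library. The control libraries stood further apart from each other than the knockdown libraries did, with a biological coefficient of variation of 10.7% in the knockdown and 53.4% in the control group. Mitochondrial genes held 5.76% to 6.53% of counts in knockdown libraries and 32.6%, 4.46% and 2.18% in control libraries 1, 2 and 3, which lowers the TPM of every other gene in control library 1. Of the labelled cell type's markers, KRT8 and KRT18, keratins of simple epithelia, were at 145 to 201 CPM in knockdown and 80.7 to 248 CPM in control libraries, and neither passed the test. Of 4 mesenchymal markers 1 rose, the filament gene VIM (5501 to 5656 CPM in knockdown, 2193 to 3376 CPM in control libraries), and 1 fell, the cadherin gene CDH2 (1.27 to 1.83 CPM in knockdown, 2.79 to 81.9 CPM in control libraries). Of 9 tested epithelial and urothelial markers 1 rose, the uroplakin gene UPK1A (4.57 to 6.45 TPM in knockdown, 0.187 to 0.897 TPM in control libraries), 3 were higher and none lower at an unadjusted p under 0.05, and the uroplakin gene UPK3A was listed at 0 TPM in all 6 libraries.

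MVK, MVD, FDPS and FDFT1 fell in the GANAB knockdown libraries, by 2.23-fold to 4.65-fold. HMGCS1, IDI1, SQLE and LSS had negative fold changes without passing the test, and PMVK had nearly the same mean in both groups. The call was an adjusted p under 0.05 in edgeR's quasi-likelihood test, adjusted over all 19430 genes tested. By that rule 4 of the 9 genes fell, against 3.72% of all genes tested called lower (8.31% in either direction). None rose, against 4.59% of all genes called higher, and the DESeq2 and limma-voom tests called none higher either. At an unadjusted p under 0.05, 8 of 9 were lower and none was higher, against 12.2% of all genes called lower at that level. The values of the groups did not overlap, with the knockdown lower, for 7 of the 9 genes, against 15.7% of all genes tested. The fitted log2 fold change was below 0 for 8 of 9, against 47.9% of all genes, and the fitted level was at least 2-fold lower for 7 of 9, against 7.28%. The median log2 fold change (log2 of the fitted knockdown level over the control level) was -1.50 for the 9 genes and 0.03 for all genes tested. In bulk RNA, fewer tumour cells in a sample and less RNA of a gene per cell cannot be told apart.

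**Figure D1:**
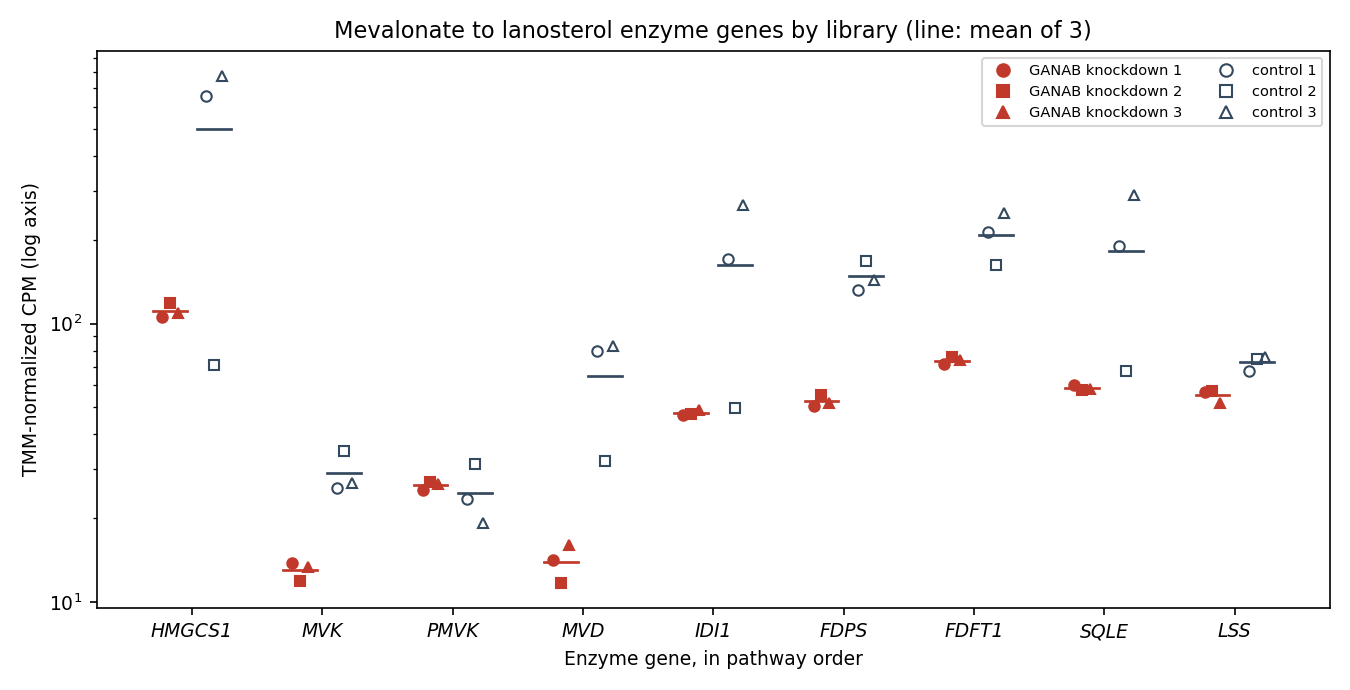
TMM-normalized CPM (log axis) of the 9 enzyme genes in pathway order, GANAB knockdown libraries filled and control libraries open, with a line at each group's mean of 3. Knockdown libraries lie close together for most genes, least so for MVD (11.8 to 16.0 CPM). Control library 2 (open square) lies far below the other controls for HMGCS1, MVD, IDI1 and SQLE.

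HMGCS1 (ENSG00000112972, chromosome 5, 43289395 to 43313512, minus strand, GRCh38) had the widest spread of the 9 genes among the controls. It stood at 105, 119 and 109 CPM in knockdown libraries 1, 2 and 3 and at 653, 71.2 and 772 CPM in control libraries 1, 2 and 3. Control library 2 was thus below every knockdown library, whereas controls 1 and 3 were far above them. Its log2 fold change was -2.17 (SE 0.718, 95% interval -3.84 to -0.492) and did not pass (edgeR adjusted p = 0.106). An antisense transcript, AC114947.2, overlaps 703 exonic bases of HMGCS1 and reached at most 3.46 CPM.

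MVK (ENSG00000110921, chromosome 12, 109573255 to 109598117, plus strand), the mevalonate kinase, fell to 13.9, 11.9 and 13.4 CPM in the knockdown, against 25.8, 35.0 and 26.7 CPM in the controls. The groups did not overlap, and control library 2 was the highest. The fall was 2.23-fold (log2 fold change -1.16, SE 0.183, edgeR adjusted p = 0.0143). MVK shares 306 exonic bases with MMAB, a gene of vitamin B12 metabolism on the opposite strand. MMAB was at 14.8, 15.0 and 16.0 CPM in the knockdown and at 23.2, 39.2 and 26.5 CPM in the controls (log2 fold change -0.96, edgeR adjusted p = 0.0411). The labels do not say whether counting used strand, so reads of the overlapping stretch cannot be assigned to either gene.

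PMVK (ENSG00000163344, chromosome 1, 154924734 to 154936991, minus strand), the phosphomevalonate kinase, was at 25.3, 26.9 and 26.5 CPM in knockdown and at 23.4, 31.2 and 19.2 CPM in control libraries. The knockdown values lay inside the control range. The log2 fold change was 0.09 (SE 0.2, edgeR adjusted p = 0.825), and its 95% interval of -0.376 to 0.558 leaves room for a moderate change in either direction. No other annotated gene overlaps PMVK.

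MVD (ENSG00000167508, chromosome 16, 88651935 to 88663161, minus strand), the mevalonate diphosphate decarboxylase, had the largest fitted fall of the 9 genes. It stood at 14.2, 11.8 and 16.0 CPM in the knockdown and at 79.7, 32.2 and 83.3 CPM in the controls. Every control was at least 2 times every knockdown library, with control library 2 the lowest control. The fall was 4.65-fold (log2 fold change -2.22, SE 0.358, edgeR adjusted p = 0.015).

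IDI1 (ENSG00000067064, chromosome 10, 1039152 to 1049170, minus strand), the isopentenyl diphosphate isomerase, had 47.0, 47.5 and 48.8 CPM in knockdown and 170, 49.6 and 267 CPM in control libraries. Control library 2 was just above the knockdown values. The log2 fold change of -1.76 (SE 0.514) did not pass (edgeR adjusted p = 0.0772). IDI2-AS1, which overlaps 643 exonic bases of IDI1 from the opposite strand, reached at most 3.05 CPM, and the paralogue IDI2 averaged 0.0719 TPM in knockdown and 0.0255 TPM in control libraries.

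FDPS (ENSG00000160752, chromosome 1, 155308748 to 155320666, plus strand), the farnesyl diphosphate synthase, had the smallest p-value of the 9 genes. It was at 50.6, 55.6 and 51.8 CPM in the knockdown and at 132, 167 and 143 CPM in the controls, so every control exceeded every knockdown library by more than the spread within either group. The log2 fold change was -1.48 (SE 0.14, edgeR adjusted p = 0.00318). The antisense gene RUSC1-AS1 shares 693 exonic bases with FDPS and moved the other way, with 5.83, 5.68 and 5.14 CPM in the knockdown and 1.84, 0.894 and 2.14 CPM in the controls (edgeR adjusted p = 0.0365). The annotation names 8 FDPS pseudogenes, FDPSP1 to FDPSP8, none of which was found among the genes of the count table. The share of reads Salmon may have split between such copies and FDPS is therefore uncertain.

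FDFT1 (ENSG00000079459, chromosome 8, 11795573 to 11839309, plus strand), the squalene synthase and the step that commits farnesyl diphosphate to sterols, fell to 71.3, 75.7 and 74.0 CPM in the knockdown, against 212, 162 and 250 CPM in the controls. All controls were more than 2 times any knockdown library. The fall was 2.82-fold (log2 fold change -1.50, SE 0.178, edgeR adjusted p = 0.00615). A long non-coding RNA, AC069185.1, overlaps 217 exonic bases of FDFT1 and reached at most 1.36 CPM.

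SQLE (ENSG00000104549, chromosome 8, 124998497 to 125022283, plus strand), the squalene epoxidase and a known control point of the route, had 60.3, 57.9 and 58.1 CPM in knockdown and 189, 67.5 and 289 CPM in control libraries. The groups did not overlap, but control library 2 was close to the knockdown values. The log2 fold change was -1.63 (SE 0.451) and did not pass (edgeR adjusted p = 0.0666). No other annotated gene overlaps SQLE.

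LSS (ENSG00000160285, chromosome 21, 46188141 to 46228824, minus strand), the lanosterol synthase that closes the sterol rings, was at 56.8, 57.4 and 52.0 CPM in knockdown and at 67.4, 74.4 and 76.0 CPM in control libraries. The groups did not overlap, and the difference was small beside those of its neighbours. The log2 fold change was -0.39 (SE 0.125, 95% interval -0.681 to -0.098, edgeR adjusted p = 0.0977). The annotation places 2 antisense transcripts over 570 exonic bases of LSS, and neither was found among the genes of the count table.

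The 9 genes differed in how evenly the controls carried them. For HMGCS1, IDI1 and SQLE the highest control was 10.8, 5.39 and 4.27 times the lowest, and these were 3 of the 9 genes with a control ratio of at least 3, against 7.26% of the 10041 genes that averaged at least 10 CPM and had no 0. For MVK, FDPS and LSS the same ratio was 1.36, 1.26 and 1.13. Control library 2 was under 50% of the next lowest control for HMGCS1, MVD, IDI1 and SQLE, 44.4% of the 9 genes, against 8.05% of those 10041 genes, and it was the highest control for MVK, PMVK and FDPS. This property was chosen after the values were seen. Within the knockdown group the ratio of highest to lowest was 1.04 to 1.36 over the 9 genes, with a median of 1.1.

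The number of calls moved with the libraries in the fit. Without control library 2, 8 of the 9 genes passed, all lower in the knockdown, against 13.8% of all genes tested called lower. PMVK was the exception (log2 fold change 0.30, edgeR adjusted p = 0.116), and in this fit it was higher at an unadjusted p under 0.05. HMGCS1 then had a log2 fold change of -2.68 (edgeR adjusted p = 2.72e-05), IDI1 -2.19 (edgeR adjusted p = 0.000235), SQLE -2.02 (edgeR adjusted p = 0.000254) and LSS -0.36 (edgeR adjusted p = 0.0214). Without knockdown library 1, 2 or 3 the edgeR count was 0, 1 and 1, against 0.0452%, 0.165% and 0.0901% of all genes called lower. FDPS was the gene that passed, and it missed without knockdown library 1 (edgeR adjusted p = 0.0518), a fit in which 6 of the 9 genes were lower at an unadjusted p under 0.05, against 7.24% of all genes. Of all genes, 62, 115 and 88 passed in these 3 fits, against 1614 with all libraries. Without control library 1 or 3, 4 of the 9 passed, against 3.26% and 4.28% of all genes called lower. The DESeq2 Wald test called 7 of 9 lower, against 9.27% of all genes, and limma-voom with quality weights also 7, against 10.4%. On the log2(TPM + 1) scale limma called MVD alone, against 0.494% of all genes lower, and with 0.1 in place of 1 none, against 0.359%. There 4 of the 9 were lower at an unadjusted p under 0.05 under either addition, against 3.16% of all genes with 1 added and 3.05% with 0.1 added. Without a filter on TPM none passed, 3 were lower at an unadjusted p under 0.05, against 0.887% of all genes, and no gene of the table was called lower (0%). With mitochondrial genes left out of the TPM, a setting chosen after the values were seen, FDPS and FDFT1 passed, against 1.8% of all genes called lower.

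**Figure D2:**
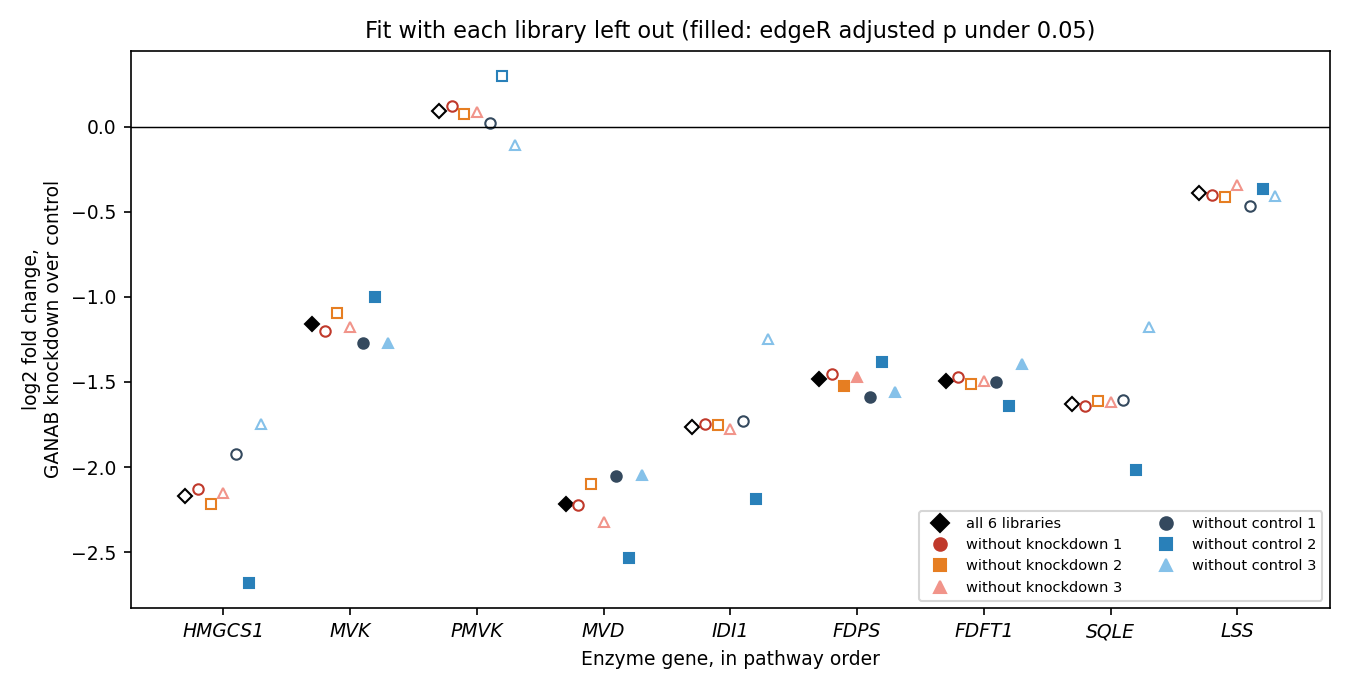
Fitted log2 fold change (GANAB knockdown over control) of each enzyme gene with all 6 libraries and with each library left out, filled where the edgeR adjusted p was under 0.05. The direction stays negative for 8 genes in all 7 fits, and PMVK lies at -0.11 to 0.30. HMGCS1, IDI1, SQLE and LSS are filled only without control library 2.

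Levels of different genes were set side by side in TPM, which scale for transcript length. In knockdown libraries HMGCS1 (75.5 ± 5.65 TPM, SD, n = 3) and FDPS (75.5 ± 4.02 TPM) were highest, with overlapping values, followed by FDFT1 (64.1 ± 3.9 TPM). PMVK (40.1 ± 2.01 TPM) and IDI1 (39.0 ± 2.5 TPM) overlapped each other, and SQLE (32.5 ± 2.71 TPM) was below both. LSS (20.2 ± 1.53 TPM), MVD (18.6 ± 4.84 TPM) and MVK (12.6 ± 1.81 TPM) came last, each overlapping its neighbour. In control libraries the order by mean was HMGCS1 (264 ± 228 TPM), FDPS (176 ± 48.7 TPM), FDFT1 (158 ± 59.5 TPM), IDI1 (122 ± 111 TPM), SQLE (91.7 ± 60.7 TPM), MVD (76.9 ± 44.1 TPM), PMVK (33.1 ± 12.5 TPM), LSS (23.1 ± 3.93 TPM) and MVK (21.8 ± 7.72 TPM). No neighbours in the control order were apart beyond their ranges. In TPM the groups did not overlap, with the knockdown lower, for 4 of the 9 genes (MVD, FDPS, FDFT1 and SQLE), against 4.53% of the 15583 genes that averaged at least 1 TPM. MVK, IDI1 and LSS, which did not overlap in CPM, overlapped in TPM. MVK had 14.6, 11.8 and 11.2 TPM in the knockdown and 13.7, 29.1 and 22.4 TPM in the controls, and the control inside its knockdown range was library 1, in which mitochondrial genes held 35.6% of the TPM. PMVK stood at place 4 of the knockdown order and place 7 of the control order.

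**Figure D3:**
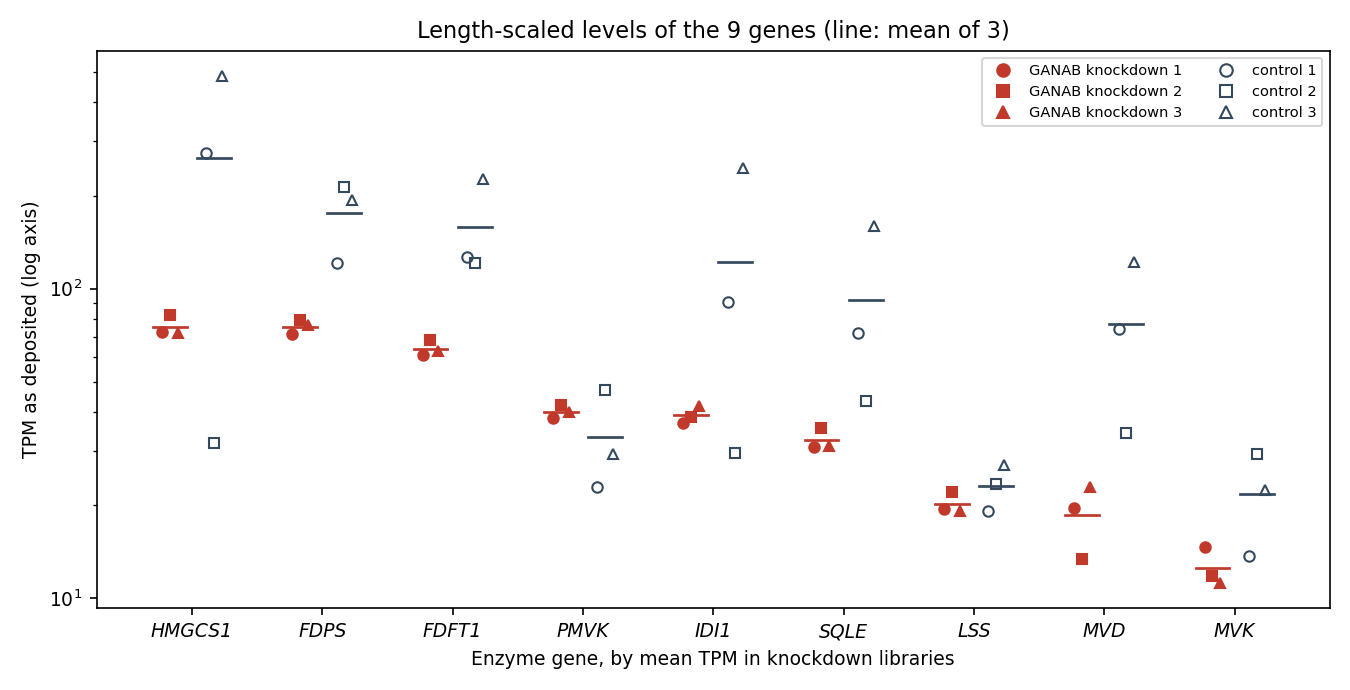
Deposited TPM (log axis) of the 9 genes, ordered by their mean in knockdown libraries, knockdown filled and control open, with a line at the mean of 3. Knockdown libraries lie close together for most genes, least so for MVD (13.4 to 23 TPM). Control library 2 places HMGCS1 at 31.6 TPM and FDPS at 213 TPM.

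Within each library the make-up of the route differed as well. HMGCS1 gave 19.1% to 20.9% of the summed TPM of the 9 genes in knockdown libraries, and 33.7%, 5.52% and 32.2% in control libraries 1, 2 and 3. FDPS gave 19.5% to 20.2% in the knockdown and 14.8%, 37.2% and 12.8% in the controls. PMVK gave 10.5% to 10.7% in the knockdown, against 1.94% to 8.21% in the controls. The summed level was 364, 393 and 377 TPM in the knockdown and 814, 572 and 1513 TPM in the controls, so no control was as low as any knockdown library.

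Ratios within a library do not depend on library scaling. PMVK was taken as the denominator after the values were seen. Relative to PMVK, FDPS had a CPM ratio of 2, 2.06 and 1.96 in the knockdown and of 5.64, 5.35 and 7.46 in the controls. The ratio of FDFT1 to PMVK was 2.81, 2.81 and 2.8 in the knockdown, against 9.05, 5.19 and 13 in the controls. The CPM ratio did not overlap and was lower in the knockdown for MVK, MVD, FDPS, FDFT1 and LSS, 5 of the other 8 genes, against 17% of 19429 genes. The CPM ratio overlapped for HMGCS1, IDI1 and SQLE, in each case through control library 2. The split of genes depended on the unit for SQLE and LSS. As a TPM ratio SQLE did not overlap, with 0.777 to 0.845 in the knockdown and 0.923 to 5.45 in the controls. LSS did overlap in TPM, with 0.48 to 0.522 in the knockdown and 0.497 to 0.919 in the controls. A ratio shows unequal change and does not show that PMVK itself kept its level.

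The enzymes before and after these steps were tested in the same fit. ACAT2, which makes acetoacetyl-CoA for HMGCS1, fell to 31.2, 30.3 and 33.2 CPM in the knockdown, against 110, 121 and 132 CPM in the controls (log2 fold change -1.94, edgeR adjusted p = 0.00112). Of 10 genes from lanosterol to cholesterol, 4 fell and 1 rose, against 3.72% of all genes called lower and 4.59% called higher. The median log2 fold change of the 10 was -1.22. DHCR7, EBP and NSDHL, which act between lanosterol and cholesterol, fell, with log2 fold changes of -1.41, -1.34 and -1.02. TM7SF2, 1 of a pair of sterol reductases for the same step, rose by 1.20 on the log2 scale, and the other, LBR, did not pass (log2 fold change -0.40). MSMO1, the sterol methyl oxidase, had 62.9, 70.4 and 67.4 CPM in knockdown and 429, 63.9 and 526 CPM in control libraries, with control library 2 inside the knockdown range (log2 fold change -2.34, edgeR adjusted p = 0.0675).

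**Figure D4:**
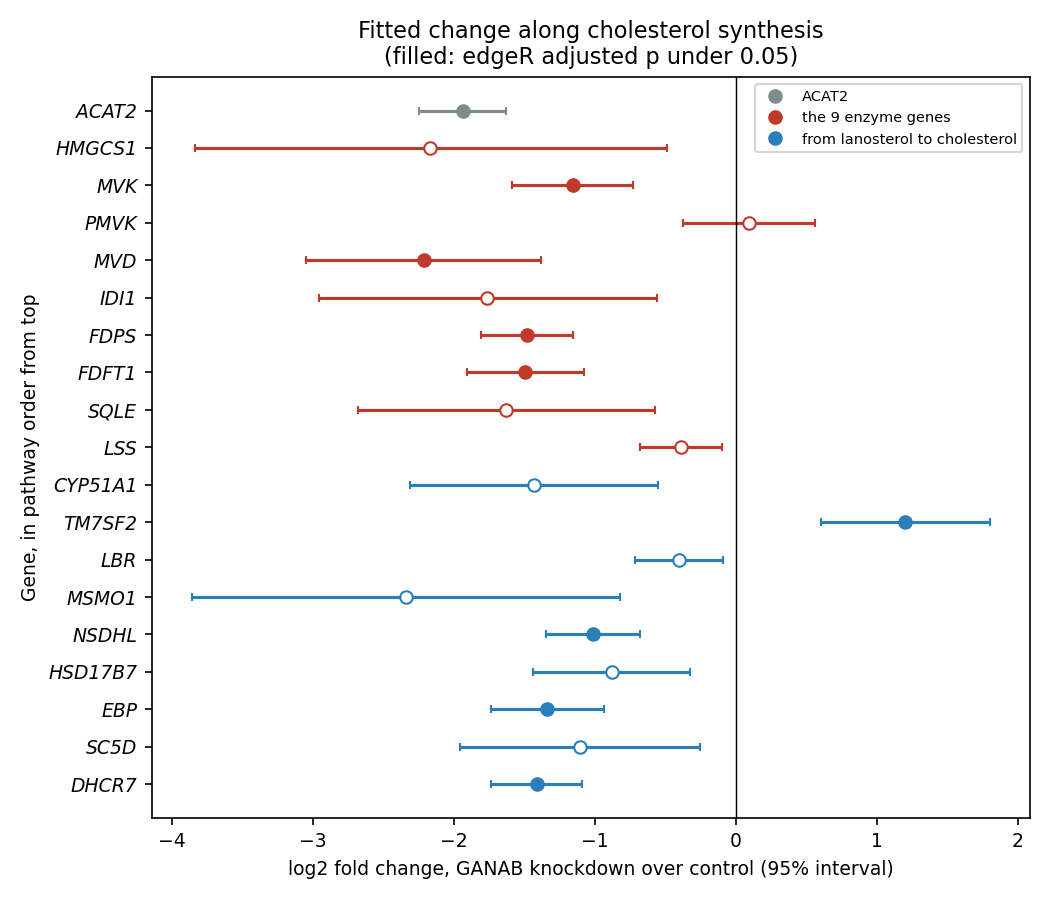
Fitted log2 fold change (GANAB knockdown over control) with its 95% interval for ACAT2, the 9 enzyme genes and 9 genes from lanosterol to cholesterol, from top to bottom, filled where the edgeR adjusted p was under 0.05. The interval of PMVK spans 0, TM7SF2 lies to the right of it, and the widest intervals belong to HMGCS1 and MSMO1.

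Among the known regulators of the route, 2 of 10 tested genes fell and 1 rose, against 3.72% of all genes called lower and 4.59% called higher. The median log2 fold change of the 10 was -0.22. SREBF2, which encodes SREBP2, fell to 112, 108 and 111 CPM in the knockdown, against 279, 225 and 237 CPM in the controls (log2 fold change -1.17, SE 0.135, edgeR adjusted p = 0.00575). STARD4, a sterol transfer protein gene, fell by 2.40 on the log2 scale (edgeR adjusted p = 0.014). MYLIP, which encodes a ubiquitin ligase induced by sterols, rose by 0.70 (edgeR adjusted p = 0.0408). INSIG1, which retains SREBP in the endoplasmic reticulum, had 132, 133 and 136 CPM in the knockdown and 300, 97.0 and 451 CPM in the controls, without passing (edgeR adjusted p = 0.197). SREBF1 had a log2 fold change of 0.80 (edgeR adjusted p = 0.186), and SCAP, the sterol sensor, of -0.04.

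Genes of the branches that draw on the same isoprenoid units were counted as well. None of 14 genes of dolichol, ubiquinone and prenylation enzymes passed in edgeR, against 8.31% of all genes in either direction. So short a list cannot tell a count of 0 from that share. At an unadjusted p under 0.05, 1 was lower, against 26% of all genes in either direction. The DESeq2 test called 1, against 18.8%, and limma-voom with quality weights 2, against 19.1%. Without control library 2, 2 fell and 2 rose in edgeR, against 27.7% of all genes. The median log2 fold change of the 14 genes was 0.02. NUS1, a subunit of the dolichol-forming prenyltransferase, had 55.8, 60.5 and 61.1 CPM in knockdown and 95.9, 70.0 and 112 CPM in control libraries (log2 fold change -0.65, edgeR adjusted p = 0.0741), while its partner DHDDS had a log2 fold change of 0.30. GGPS1, which extends farnesyl diphosphate for prenylation, had one of 0.01. Of 8 genes of fatty acid synthesis and desaturation, known as targets of SREBP1, none was higher even at an unadjusted p, by DESeq2 or by limma-voom. In edgeR 4 of the 8 fell, against 3.72% of all genes called lower. Among them were FASN, the fatty acid synthase (log2 fold change -1.75), the desaturase SCD (-1.43) and the desaturase FADS1 (-1.89). Without any 1 knockdown library, 2 of the 8 passed, and without control library 2, 7 did. Of 9 tested genes of sterol storage, sensing and export, NPC1 (log2 fold change -1.13) and SOAT1 (-0.55) fell, against 3.72% of all genes called lower. None passed in the other direction in edgeR with all libraries. The median log2 fold change of the list was 0.48, with 4 of 9 below 0. In that list 1 gene, NR1H3 (log2 fold change 0.92), was higher at an unadjusted p under 0.05. By DESeq2 1 gene of the list was higher and by limma-voom 0. Without control library 1, 1 gene of the list fell and 2 rose in edgeR, against 7.89% of all genes in either direction.

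Other gene groups moved with the same contrast. All 12 mitosis genes tested fell, against 3.72% of all genes called lower, with a median log2 fold change of -1.23. Their summed level was 367 to 397 TPM in knockdown and 527 to 1114 TPM in control libraries. Without knockdown library 1, 2 or 3, 0, 3 and 1 of the 12 passed in edgeR, with all 12 lower at an unadjusted p under 0.05 in each of these fits, and without control library 1, 8 passed. On log2(TPM + 1), log2(TPM + 0.1) and without a filter on TPM, 1, 0 and 0 of the 12 passed in limma, and 10, 10 and 5 were lower at an unadjusted p under 0.05. Of 6 smooth muscle markers, MYH11 and CNN1 rose, against 4.59% of all genes called higher. SMTN went the other way without overlap, at 54.7 to 55.7 CPM in the knockdown and 59 to 85 CPM in the controls. Its log2 fold change of -0.31 did not pass (edgeR adjusted p = 0.29). The 6 markers summed to 364 to 380 TPM in the knockdown and 135 to 181 TPM in the controls. Of 6 tested fibroblast markers 1 rose, PDGFRB, with a summed level of 108 to 118 TPM in the knockdown and 31.6 to 57.4 TPM in the controls, while LUM was listed at 0 throughout. No smooth muscle or fibroblast marker passed in edgeR without knockdown library 1, 2 or 3, where 3 to 4 smooth muscle markers and 1 fibroblast marker were higher at an unadjusted p under 0.05. Endothelial markers summed to 1.53 to 2.48 TPM in the knockdown and 0.399 to 0.929 TPM in the controls, and none of 5 tested passed in edgeR, while 1 was higher at an unadjusted p under 0.05 and by DESeq2 and limma-voom. Of leukocyte markers none of 5 tested passed in edgeR, and 1, CD68, was lower at an unadjusted p under 0.05 and 1 by DESeq2 and limma-voom, with sums of 47.2 to 50.9 TPM in the knockdown and 55.5 to 210 TPM in the controls, most of it CD68 in each library. The leukocyte marker CSF1R was higher without overlap, at 0.471 to 0.917 CPM in the knockdown and 0 to 0.331 CPM in the controls. Its log2 fold change of 2.05 did not pass (edgeR adjusted p = 0.235). The part of these groups in the fall of the 9 genes was not tested.

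The genes closest in pattern to the 9 as a whole were found by the root mean square distance of their centred log2 CPM over the 6 libraries from the mean profile of the 9 genes, among 9491 protein-coding genes outside the lists with a mean of at least 10 CPM. The nearest were MLLT3, a chromatin reader gene (distance 0.0629), MMP14, a membrane matrix metalloproteinase gene (0.112), ARHGAP29, a GTPase-activating protein gene (0.114), TANC1 (0.127) and DNHD1 (0.128). MLLT3 stood at 19.0, 18.5 and 20.2 CPM in the knockdown and at 51.0, 32.8 and 56.5 CPM in the controls. Of the 9 genes, FDFT1 was nearest to their mean profile (0.18) and HMGCS1 (0.84) and PMVK (0.829) were farthest.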

How the data were processed

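Bulk RNA-seq of 3 GANAB knockdown and 3 control libraries was analysed. Per the labels' protocols, RNA was taken with TRIzol and a VAHTS Universal V6 kit made the libraries. The build GRCh38 and the tools Salmon, fastp and DESeq2 are listed per the submitters' processing notes, with neither versions nor roles, and no source used here says whether mouse reads were removed. The authors deposited estimated counts per gene, written as whole numbers, and TPM. The knockdown columns are headed KO and were matched by group and number.

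The estimated counts were tested with edgeR 4.0.16 in R 4.3.3 (filterByExpr, TMM, quasi-likelihood test, 2-sided, no covariate, Benjamini-Hochberg adjustment), which left 19430 of 21503 genes. Standard errors came from the F statistic, and intervals from the t distribution with the fit's degrees of freedom. A count was worth 0.0236 to 0.0823 CPM. Alternatives used DESeq2 1.42.0 and limma 3.58.1. The fits were also run on simulated counts in which both groups had the same spread. Here the spread was unequal (10.7% in the knockdown and 53.4% in the control group). The simulation therefore cannot show how the fits behave on these libraries. Positions and overlaps came from GENCODE 29 (GRCh38), where 20986 identifiers were found. The members, lists and tests were chosen with earlier results of these data known. The named genes were GANAB, the 9 members, genes of the pathway and regulator lists, up to 3 genes with the smallest p of other lists, markers, 5 nearest genes by profile, and genes overlapping a member, added after the values were seen. Some genes of these lists are counted but not reported here by name.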

Additional observations from a re-analysis of the deposited data

How the results depend on the processing

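The median log2 fold change of the 9 enzyme genes was negative in all 17 alternatives. Of all genes, 1614 passed with all libraries and 892 of them were higher. The count was 3655 by DESeq2, 3716 by limma-voom with quality weights, 566 with the replicate block, 828 on log2(TPM + 1) (751 higher), 526 on log2(TPM + 0.1) (470 higher) and 68 without a filter on TPM (68 higher), and 62 to 5604 with 1 library left out. Without mitochondrial genes, a setting chosen after seeing the data, it was 1262 (974 higher). Enzyme genes called lower, 4 with all libraries, were 7 by DESeq2 and by limma-voom, 1, 0 and 0 on these TPM settings, 2 without mitochondrial genes, and 0 to 8 with 1 library left out. Of 36 genes around them 9 passed with all libraries, against 8.31% of all genes in either direction. Of these 36, 17 passed by DESeq2, 21 by limma-voom, 5, 4 and 0 on the TPM settings, and 2 to 23 with 1 library left out. The median of all genes was 0.23 on the log2(TPM + 1) scale, 0.28 on log2(TPM + 0.1) and 0.15 without mitochondrial genes, against 0.03 in the count fit. GANAB did not pass on log2(TPM + 0.1) (-1.26) or without a filter on TPM (-1.25). PMVK was at -0.11 to 0.30 with 1 library left out and negative without control library 3. Of the 12 mitosis genes, 8 passed with the replicate block. The cause of these differences was not tested. The labels state no pairing of the replicate numbers. Deviations of same-numbered libraries correlated at 0.00223 to 0.0218 across genes, and those of differently numbered libraries at -0.0185 to 0.00189. With 3 libraries a group these values cannot settle whether libraries were paired. With the replicate block 3 enzyme genes passed, all lower, against 1.1% of all genes called lower. MVK missed in that fit (edgeR adjusted p = 0.0548). Depth limits low genes most in control library 3.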
